A study of Mus musculus with 6 samples.

Results

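The promoters of the cytoplasmic ribosomal protein genes were examined in H3K27ac ChIP-seq data of O4AID ESCs, before and after rapid loss of OCT4. The genes were chosen by name, as the protein-coding genes of GENCODE vM21 called Rpl or Rps with a number, together with Rpsa, Rplp0, Rplp1 and Rplp2. This gave 83 genes, 51 of the large and 32 of the small ribosomal subunit. A promoter peak was any H3K27ac peak with a transcript start of such a gene within 1 kb. The rule found 89 of the 31131 peaks, at 81 of the 83 genes: 73 genes had 1 peak and 8 had 2. Rpl3l, the muscle form of Rpl3, and Rpl39l, a testis-enriched relative of Rpl39, had none. For each gene the peak with the highest mean signal is called its main peak, and the other peak of a gene with 2 is called its minor peak.

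All cells were Oct4-/- ESCs of strain 129SV made from ZHBTc4 ESCs, in both conditions. They carry a TetOFF Oct4 transgene, kept off with doxycycline, together with CAG Oct4AID, a fusion of OCT4 with an auxin-inducible degron, and CAG Tir1, the plant F-box protein that the degron needs. The only OCT4 is thus expressed from the constitutive CAG promoter rather than from the Pou5f1 locus. They were grown in N2B27 with PD03, Chiron and LIF. The 3 uninduced libraries come from untreated cells and the 3 IAA libraries from cells given 500 μM of the auxin IAA for 1.5 h, which triggers degradation of the fusion protein. The libraries are separate immunoprecipitations (IPs), and nothing in the labels says that they came from separate cultures, so p-values measure the spread between IPs.

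Ribosomal proteins assemble with ribosomal RNA into the subunits that translate every mRNA, and their genes are among the most highly transcribed housekeeping genes of a growing cell. Their transcripts typically begin in a run of pyrimidines, the 5′ terminal oligopyrimidine (TOP) motif, through which mTOR signalling controls their translation. Acetylation of histone H3 at lysine 27 marks active promoters as well as active enhancers. ESCs are transcriptionally active, fast-dividing cells, and OCT4 is best known for its sites at enhancers of pluripotency genes.

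The start regions of a few of these genes show the promoter type at or beside the peaks. The Rps10 main peak ends at base 27635231, short of the start used here. The sequences were taken from RefSeq promoter entries on GRCm38.p6, matched for 61 of the 81 genes with a peak (the entry nearest the centre of the main peak where a gene has several), and run from 60 bases before the start to 20 bases from it on. Capitals mark a pyrimidine run that begins with C within 5 bases of the start and has at least 4 more pyrimidines. The first set holds long runs at the start.
Rpl27a (chr7:109519135-109519214, plus strand): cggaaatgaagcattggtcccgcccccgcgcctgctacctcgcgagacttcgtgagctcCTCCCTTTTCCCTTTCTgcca
Rpl13a (chr7:45128726-45128805, minus strand): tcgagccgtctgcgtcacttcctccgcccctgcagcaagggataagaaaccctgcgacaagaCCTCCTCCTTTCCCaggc
Rpl15 (chr14:18270967-18271046, minus strand): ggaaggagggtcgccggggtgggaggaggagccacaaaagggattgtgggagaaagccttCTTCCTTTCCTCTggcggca
Rps10 (chr17:27635225-27635304, minus strand): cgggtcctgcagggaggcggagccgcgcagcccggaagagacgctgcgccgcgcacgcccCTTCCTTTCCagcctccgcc
Rps6 (chr4:86857348-86857427, minus strand): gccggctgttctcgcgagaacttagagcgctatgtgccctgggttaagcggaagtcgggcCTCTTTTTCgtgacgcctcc
The other set is shown because these genes stood at the ends of the range of levels or changes described further on, or lay near an OCT4 site. Rpl19 had the smallest change of a main peak and Rpl36a the largest, Rps26 lay near an OCT4 site, and Rpl36a and Rpl7l1 have no such run.
Rpl19 (chr11:98026864-98026943, plus strand): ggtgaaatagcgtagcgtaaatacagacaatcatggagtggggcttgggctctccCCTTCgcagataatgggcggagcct
Rps26 (chr10:128626487-128626566, minus strand): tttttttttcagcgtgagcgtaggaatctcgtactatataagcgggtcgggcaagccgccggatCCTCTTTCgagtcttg
Rpl36a (chrX:134585594-134585673, plus strand): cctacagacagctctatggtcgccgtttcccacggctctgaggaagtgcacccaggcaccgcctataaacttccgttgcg
Rpl7l1 (chr17:46782637-46782716, minus strand): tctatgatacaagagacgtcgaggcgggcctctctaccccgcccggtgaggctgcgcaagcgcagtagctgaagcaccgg
A TOP start by this definition was found in 26 of 61 matched promoters (42.6%) and in 1530 of 7617 promoters of other coding genes with a peak (20.1%). The count depends on the exact start of each RefSeq entry and can miss TOP starts. In Rps12 and Rps24, for example, a pyrimidine run lies more than 5 bases from the entry's start and was not counted. RefSeq promoter entries for 20 genes were not matched, among them Rpl17, Rpl21, Rpl23a, Rpl29, Rpl3, Rpl30, Rpl32, Rpl36, Rpl7, Rpl8, Rplp1, Rps14, Rps20, Rps27a and Rps29.

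The H3K27ac signal is given in RPKM, reads scaled by peak length and library size. Library sizes lay between 31634480 and 39547452 reads. The median promoter peak of the family held 183 to 378 reads in a library, so counting error alone was 5.14% to 7.39% of such a value. All 89 peaks reached 0.5 RPKM, the background threshold, in the mean of either condition, as did 26457 of all peaks, and tests were run over these 26457. Reads in peaks made up 6.63% to 7.12% of the uninduced libraries and 4.05% to 5.15% of the IAA libraries. As an RPKM value is relative to the whole library, this share and the level of the peaks move together. Neither input nor spike-in reads were used.

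Before treatment, ribosomal protein gene promoters carried some of the highest H3K27ac in these cells. The median main peak had 5.80 RPKM, against 2.88 RPKM for the other 11734 coding promoter peaks and 2.44 RPKM for all peaks tested. Among all tested peaks, the median main peak stood at percentile 94.9 and the lowest, Rps4x, at percentile 60.7, and 59 of 81 main peaks (72.8%) were in the top 10%. On the log2 scale the median over all 89 peaks exceeded that of the other coding promoters by 0.96 ± 0.05 (SD, n = 3) in uninduced libraries.

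**Figure D1:**
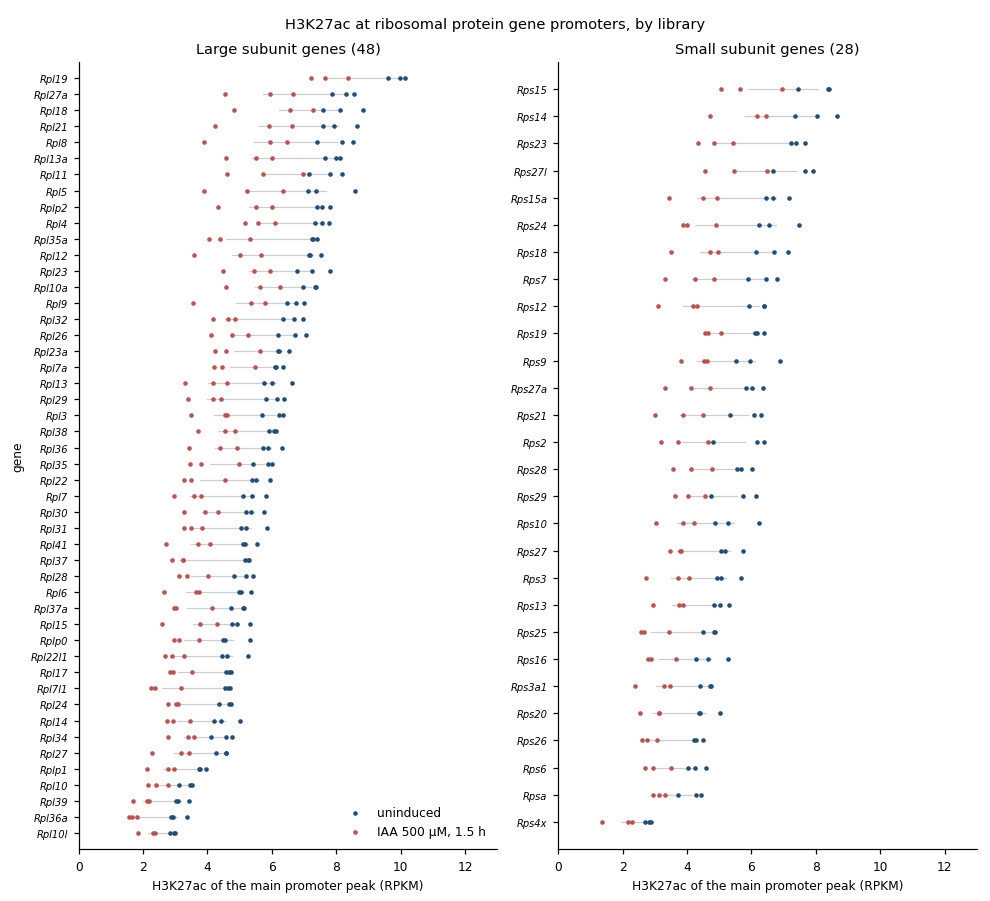
H3K27ac (RPKM) of the main promoter peak of 48 large and 28 small subunit genes, sorted by uninduced mean, with 1 point for each of 3 uninduced and 3 IAA libraries and a grey line between the condition means. In each of the 76 genes plotted all 3 IAA points lie below all 3 uninduced points.

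Among the highest levels was that of Rpl19, with 10.1, 9.98 and 9.61 RPKM in the uninduced and 8.37, 7.66 and 7.22 RPKM in the IAA libraries. All 3 uninduced values of Rpl19 lay above those of the next genes named here. These were Rpl27a at 8.24 ± 0.35 RPKM and Rps15 at 8.08 ± 0.55 RPKM (SD, n = 3), which overlapped.

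At the low end were the X-linked genes. Rps4x read 2.88, 2.81 and 2.70 RPKM before and 2.28, 2.16 and 1.37 RPKM after IAA. Rpl36a read 3.37, 2.94 and 2.85 RPKM before and 1.82, 1.66 and 1.57 RPKM after. Rpl39 had 3.18 ± 0.22 RPKM and Rpl10 3.36 ± 0.21 RPKM in uninduced cells (SD, n = 3). The autosomal Rpl10l, an intronless copy of Rpl10 known for its use in male germ cells, had 2.93 ± 0.09 RPKM, within the range of the X-linked genes, and 32.1% of its sampled 32-base words recur in the genome. The 4 X-linked main peaks had a median of 1.68 on log2(RPKM + 0.1) in uninduced libraries and the 77 autosomal ones 2.59. Other coding promoters had 1.22 on X (274 peaks) and 1.59 on autosomes (11460 peaks).

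After 1.5 h of IAA, H3K27ac was lower at the main promoter peak of each of the 81 ribosomal protein genes with a peak. All 81 main peaks fell, with limma adjusted p between 0.00107 and 0.0329, and 87 of all 89 promoter peaks fell, while 0 rose. This has to be read against the whole table, in which 68.2% of the tested peaks fell by the same test, and against other coding promoters with an uninduced level within the quartiles of the family, of which 90.6% fell. All of these peaks were called on the uninduced IPs only, which can favour falls and leaves out regions marked only after IAA. The 3 IAA values lay below the 3 uninduced values in the same number of promoter peaks, 87, against 71.2% of all tested peaks and 90.2% of the coding promoters of like level. The median main peak lost 31.7% of its RPKM, with a range from 21.8% for Rpl19 to 44.9% for Rpl36a. Taken by gene, over all peaks of a gene weighted by length, each of the 81 genes reached p = 0.1 in an exact permutation of the libraries, the lowest that this design can give. Without uninduced replicate 1, 50 of the 89 peaks and 45 of the 81 main peaks were called lower. The share of all tested peaks in that fit is not given here, so these counts do not compare the family with the whole table. The lowest of the 6 values was that of IAA replicate 3 in 72 main peaks (88.9%), as in 65.4% of all tested peaks.

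**Figure D2:**
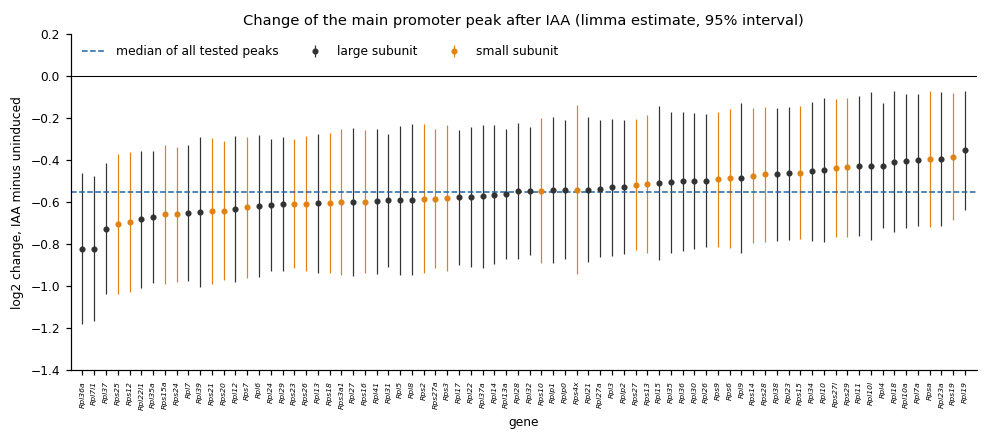
Log2 change (IAA minus uninduced, limma estimate with 95% interval) of the main promoter peak of 76 genes, in order of size and coloured by subunit. All intervals lie below 0, and all include the median change of all tested peaks (dashed, -0.55).

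The median change was close to those of the other coding promoters and of all peaks. Per library, the median over the 89 promoter peaks went from 2.54 ± 0.08 to 1.99 ± 0.22 on log2(RPKM + 0.1) (SD, n = 3), a change of -0.55. The other coding promoters changed by -0.53 and all tested peaks by -0.55. Coding promoters with an uninduced level within the quartiles of the family (1536 peaks) changed by -0.55 too. The distance between the family and the other coding promoters was 0.96 ± 0.05 before and 0.95 ± 0.05 after IAA (SD, n = 3), so it moved by -0.01 with overlapping libraries. When each library was centred on its median tested peak, 0 of the 89 peaks were called by limma in either direction, against 1.97% of all tested peaks called lower and 0.544% called higher. The smallest adjusted p among the 89 was then 0.112, and 3 peaks had an unadjusted p under 0.05. Of the 81 main peaks, 44 had a positive change on this scale.

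**Figure D3:**
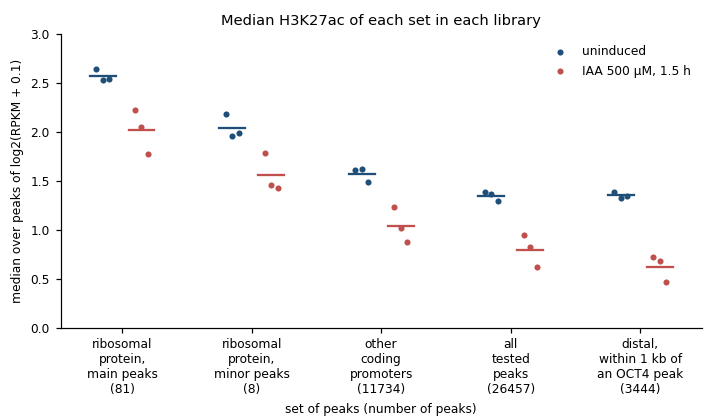
Median over peaks of log2(RPKM + 0.1) in each of 6 libraries (points) with the condition mean (lines), for ribosomal protein main and minor peaks, other coding promoters, all tested peaks and distal peaks within 1 kb of an OCT4 peak. The ribosomal protein main peaks sit about as far above the other coding promoters after IAA as before.

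The changes of the family's main peaks lay close together. The quartiles of the change over main peaks were -0.61 and -0.49, and the SD over main peaks was 0.09. Over all 89 peaks the SD was 0.11, and over the 8 minor peaks it was 0.25. For other coding promoters of like uninduced level the quartiles were -0.65 and -0.45 and the SD 0.19. That set was not limited to the strongest peak of each gene, as the main peaks are. The family's peaks are longer, with a median of 1616 bases against 1071 bases, so they hold more reads at the same RPKM. The median standard error was 0.16 in both sets, but limma draws it toward a trend with level, by which the comparison set was chosen. It therefore does not compare the noise of the 2 sets. Across the 81 main peaks the change had Pearson's r of 0.26 and Spearman's rho of 0.24 with the log2 uninduced level, -0.01 and -0.04 with peak length and 0.25 and 0.19 with GC content. The points share the same 6 libraries, and level and change share the same uninduced values.

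**Figure D4:**
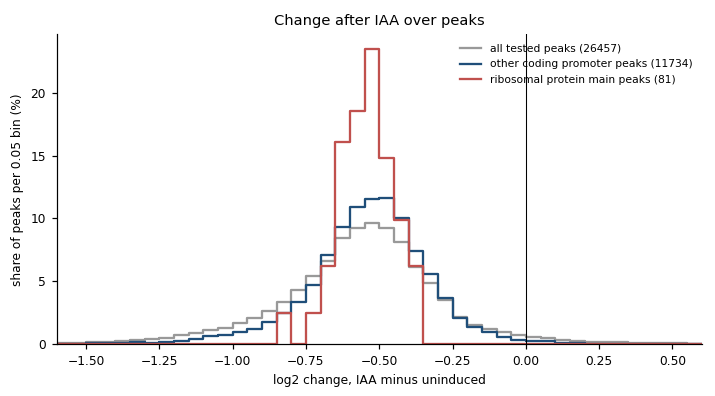
Share of peaks (%) in bins of the log2 change (IAA minus uninduced) for 81 ribosomal protein main peaks, 11734 other coding promoter peaks and 26457 tested peaks. The ribosomal protein main peaks form a narrow group between -0.82 and -0.35, at the centre of the other distributions.

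Among large subunit genes the biggest changes were those of Rpl36a, Rpl7l1 and Rpl37. Rpl36a fell by 0.82 on the log2 scale (95% interval -1.18 to -0.46, limma adjusted p = 0.00139), from the per-library values given above. Rpl7l1, a diverged relative of Rpl7, had 4.63, 4.69 and 4.54 RPKM before and 3.19, 2.36 and 2.26 RPKM after IAA, without overlap. Its change was -0.82 (-1.17 to -0.48, limma adjusted p = 0.00107), the smallest adjusted p of the family. Rpl37 had 5.28, 5.25 and 5.17 RPKM before and 3.25, 3.25 and 2.89 RPKM after, a change of -0.73 (-1.04 to -0.41). Even these intervals hold the median of all peaks.

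The smallest changes of the large subunit were those of Rpl19, Rpl23a and Rpl7a. Rpl19, whose protein lies at the subunit interface, changed by -0.35 (95% interval -0.64 to -0.07, limma adjusted p = 0.0296). Rpl23a, part of the nascent chain exit site, went from 6.52, 6.19 and 6.23 RPKM to 5.64, 4.57 and 4.25 RPKM, a change of -0.39. Rpl7a went from 6.34, 6.10 and 6.14 RPKM to 5.46, 4.44 and 4.22 RPKM, a change of -0.40. In both genes the conditions are separate, and IAA replicate 1 was the IAA library nearest to the uninduced ones. The calls of all 3 genes were lost without any single uninduced library or without IAA replicate 2 (limma adjusted p from 0.0656 to 0.112).

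The genes of the P stalk, which recruits translation factors to the large subunit, had close estimates. Rplp0, the stalk base, had 4.56, 5.33 and 4.49 RPKM before and 3.75, 2.96 and 3.11 RPKM after IAA. Rplp1 had 3.76, 3.74 and 3.95 RPKM before and 2.98, 2.77 and 2.11 RPKM after. Rplp2 had the highest level of these, 7.54, 7.80 and 7.39 RPKM before and 6.01, 5.50 and 4.33 RPKM after. Their log2 changes were -0.54, -0.54 and -0.53, and all fell, although Rplp0 did not pass the test without uninduced replicate 2 (limma adjusted p = 0.0585).

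Rpl5 and Rpl11 form with 5S ribosomal RNA the particle that binds MDM2 when ribosome assembly fails. Rpl5 went from 8.59, 7.37 and 7.12 RPKM to 6.36, 5.22 and 3.90 RPKM, a change of -0.59. Rpl11 went from 8.18, 7.80 and 7.17 RPKM to 6.97, 5.74 and 4.62 RPKM, a change of -0.43 (-0.28 without IAA replicate 3). Rpl3, which lies at the peptidyl transferase centre, had 6.22, 5.69 and 6.36 RPKM before and 4.61, 4.56 and 3.48 RPKM after, a change of -0.53. Rpl26, known to promote p53 synthesis, changed by -0.50. All of these fell in the limma test. The calls of Rpl5 and Rpl11 were lost without uninduced replicate 1 (limma adjusted p = 0.0505 and 0.102), those of Rpl11 and Rpl26 without uninduced replicate 2 (0.0791 and 0.0591), and that of Rpl11 also without IAA replicate 2 or 3 (0.0577 and 0.0601).

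Of the small subunit genes, Rps25, Rps12 and Rps15a changed most. Rps25, needed for some internal ribosome entry sites, had 4.84, 4.87 and 4.50 RPKM before and 3.43, 2.58 and 2.66 RPKM after IAA, a change of -0.70 (95% interval -1.04 to -0.37, limma adjusted p = 0.00236). Rps12 had 6.40, 6.39 and 5.94 RPKM before and 4.20, 4.30 and 3.09 RPKM after, a change of -0.69. Rps15a had 7.18, 6.67 and 6.45 RPKM before and 4.94, 4.50 and 3.45 RPKM after, a change of -0.66. None of these overlapped between conditions.

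The smallest small subunit changes were those of Rps19, Rpsa and Rps29. Rps19, the gene most often mutated in Diamond-Blackfan anaemia, went from 6.39, 6.10 and 6.16 RPKM to 5.07, 4.55 and 4.64 RPKM, a change of -0.38 (95% interval -0.68 to -0.08, limma adjusted p = 0.0273). Rpsa, which also serves as a laminin receptor, went from 4.43, 4.27 and 3.73 RPKM to 3.32, 3.12 and 2.94 RPKM, a change of -0.39. Rps29 went from 6.14, 4.73 and 5.75 RPKM to 4.57, 4.02 and 3.63 RPKM, a change of -0.43, with its top IAA library just under its lowest uninduced one. Rps6, the target of S6 kinase, went from 4.59, 4.26 and 4.03 RPKM to 3.51, 2.94 and 2.71 RPKM, a change of -0.49. The calls of Rps19, Rpsa, Rps29 and Rps6 were lost without uninduced replicate 1 (limma adjusted p = 0.108, 0.140, 0.126 and 0.0763), those of all but Rps29 without uninduced replicate 2, and those of Rps19 and Rps29 without uninduced replicate 3, while leaving out IAA replicate 2 ended those of Rps19, Rpsa and Rps29. As groups, the library medians of main peaks changed by -0.53 in the large and -0.55 in the small subunit.

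Named relatives were set side by side within each library, so that a shift common to a library drops out. Rpl22l1, which can replace Rpl22, was lower than Rpl22 by 0.23 ± 0.05 on the log2 scale before and 0.34 ± 0.15 after IAA (SD, n = 3). Rps27l, a p53 target, was higher than Rps27 by 0.47 ± 0.12 before and 0.55 ± 0.19 after. The differences of Rpl7l1 from Rpl7 and of Rpl10l from Rpl10 moved by -0.17 and 0.02. In these 4 pairs the conditions overlapped. Rpl36a and Rpl36, alike in name but different proteins, differed by -0.95 ± 0.06 before and -1.27 ± 0.17 after, without overlap, a shift of -0.32 (p = 0.1 by exact permutation, two-sided, which is the lowest that 3 against 3 can give, and 0.5 when adjusted over the 5 pairs). The paired names of Rpl3 and Rpl39 could not be compared, as Rpl3l and Rpl39l had no peak, and Rps4l is not in the annotation used.

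The 8 genes with 2 promoter peaks were Rpl13a, Rpl18, Rpl3, Rpl37, Rps14, Rps18, Rps24 and Rps9. The 2 promoter peaks that did not pass the test, and whose conditions overlapped, were minor peaks. That of Rpl13a had 7.01, 5.85 and 6.01 RPKM before and 5.82, 6.17 and 4.35 RPKM after IAA (change -0.22, limma adjusted p = 0.219). That of Rps24 also lies within 1 kb of a Polr3a start, so its signal cannot be assigned to Rps24 alone. It had 4.37, 3.94 and 3.07 RPKM before and 4.05, 2.45 and 3.32 RPKM after (change -0.22, limma adjusted p = 0.277). At the other end, the minor peak of Rpl18, which also lies within 1 kb of a Sphk2 start, had the largest change of the family, from 6.39, 8.07 and 5.28 RPKM to 3.15, 4.02 and 3.72 RPKM (change -0.83, limma adjusted p = 0.00124).

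Within a library, the log2 difference of minor minus main peak was higher after IAA by 0.35 in Rpl13a, 0.35 in Rpl37 and 0.43 in Rps24, each with no overlap between conditions. For these 3 genes an exact permutation, two-sided, gave p = 0.1, the lowest it can reach, and 0.267 after adjustment over the 8 genes. In the other genes the conditions overlapped, with shifts from -0.42 in Rpl18 to -0.04 in Rps18. The minor peaks are short, with a median of 543 bases, and the 2 without a call held 44 to 90 reads in a library. Of the 8 minor peaks, 5 lie within 1 kb of the start of another coding gene.

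Most ribosomal protein main peaks reached farther into the gene than upstream of it. Other coding promoters were not measured in this way, so the shape is not shown to be particular to the family. Measured from the start of the gene's principal (APPRIS) transcript, and the closest to the peak where there are several, the median peak reached 374 bases upstream and 1230 bases downstream, and 77 of 81 reached farther downstream than upstream. This start lay inside the peak in 74 of 81. The longest downstream reach was 2465 bases, at Rpl13a, a host of snoRNA genes in its introns. The median of the single-peak changes was -0.54 in the 30 snoRNA host genes and -0.54 in the other 51 genes, while the library medians changed by -0.57 and -0.54.

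**Figure D5:**
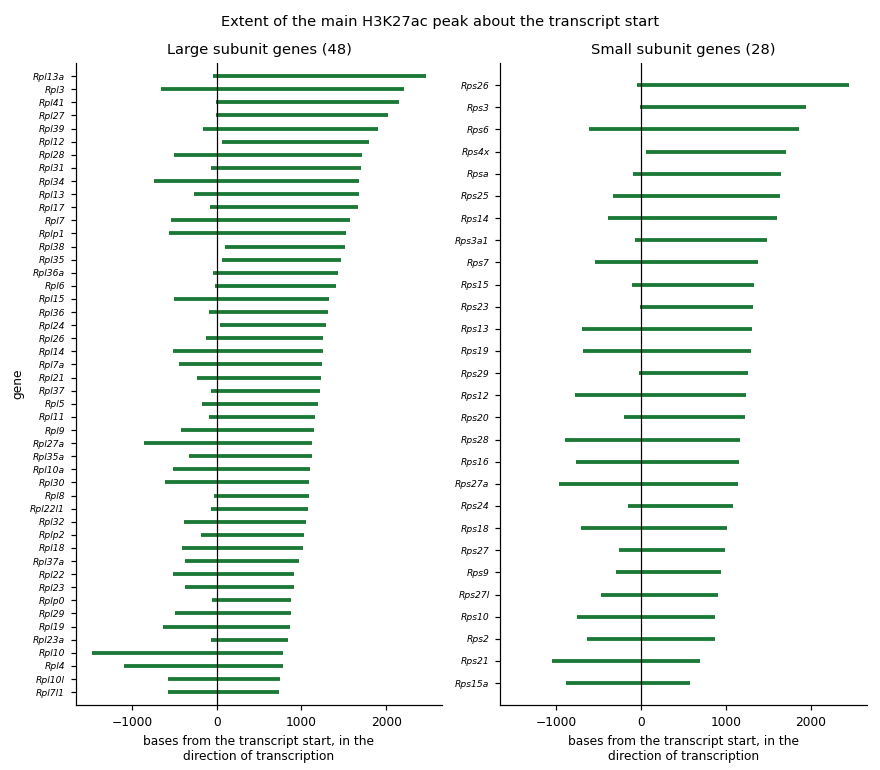
Extent of the main H3K27ac peak in bases from the start of the principal transcript, in the direction of transcription, for 48 large and 28 small subunit genes sorted by downstream reach. In most genes the bar reaches farther to the right of the start (black line) than to the left.

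Most peaks held a start. Of the 89 peaks, 83 contained one and 6 lay up to 866 bases from it, among them the main peaks of Rps4x and Rpl38, at 2 and 99 bases. The closest peaks beyond 1 kb were near Rps14, at 1078 bases, with 3.10 RPKM before and 1.90 RPKM after IAA, and near Rps20, at 1154 bases, with 3.75 and 2.08 RPKM. Inside the limit, the most distant was the minor peak of Rps18, with 5.11 and 3.37 RPKM. A start of another coding gene lay within 1 kb of 21 of the 89 peaks, for example Zwilch at Rpl4 and Rab13 at Rps27, and H3K27ac there cannot be told apart between the genes. The 68 peaks without such a neighbour had a library median change of -0.56 and the 21 with a neighbour -0.49, but the median of the single-peak changes ran the other way, -0.54 and -0.58, so no order can be read from them.

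Promoter motifs were searched from 250 bases before to 50 after the start in the 61 matched promoters, on both strands and each motif by itself. The GABP/ETS motif CCGGAAG was found in 37.7% of them, against 22.7% of the 7617 other coding promoters. The YY1 motif AANATGGC was found in 18.0% against 10.6%, and the SP1 box GGGCGG in 60.7% against 69.4%. The NRF1 motif GCGCATGCG stood at 4.92% against 4.86% and the E-box CACGTG at 9.84% against 11.2%. TATAAA in the 40 bases before the start, on the plus strand, was found in 1 ribosomal protein promoter, Rpl22l1 (1.64% against 0.893%). This count too depends on the exact start of each entry. In the Rpl36a sequence printed above, TATAAA lies just after the entry's start and was not counted. The octamer ATGCAAAT, the letters OCT4 is known to bind, was in 0 of the 61 windows and in 1.18% of the others.

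Median changes with and without a motif were as follows. The median change of the main peak was -0.58 in the 23 promoters with the ETS motif and -0.55 in the others. It was -0.55 in the 26 with a TOP start and -0.57 in the others, a split that depends on the same RefSeq starts. The widest gap was that of the E-box, with -0.46 in 6 promoters and -0.57 in the others, on few genes and with no test.

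Few of these promoters lay near OCT4 sites. In the authors' mark for peaks within 1 kb of an OCT4 peak in published ChIP-seq data, 4 of the 89 peaks (4.49%) were positive, against 17.6% of all tested and 8.06% of the other coding promoter peaks. They included the main peaks of Rps26 and Rps3 and the minor peak of Rpl3. Rps26 had 4.48, 4.20 and 4.27 RPKM before and 3.06, 2.75 and 2.61 RPKM after IAA, a change of -0.61. Rps3, a protein of the mRNA entry site, had 5.67, 5.07 and 4.93 RPKM before and 3.73, 4.05 and 2.73 RPKM after, a change of -0.58.

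The minor peak of Rpl3, at chr15:80090687-80092189 beside a start of Syngr1, was low, with 2.54, 2.23 and 1.96 RPKM before and 1.35, 1.24 and 1.13 RPKM after IAA, a change of -0.80. All 4 fell in the limma test, as did 87 of all 89 promoter peaks and 68.2% of all tested peaks. Relative to the median peak 0 of the 4 were called, against 1.97% of all tested peaks called lower and 0.544% higher. For comparison, distal peaks near OCT4 sites (3444 peaks) had a library median change of -0.73.

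Most genes of the related lists fell as well, set against the 68.2% of all tested peaks. Of 5 cytoplasmic ribosomal protein genes outside the naming rule, 4 had a promoter peak, Fau, Rack1 and Rpl36al among them, and all 4 fell, with a median change of -0.57. Rps27rt had none. Of 77 mitochondrial ribosomal protein genes with a peak, of 78 in all, 63 fell (81.8%), with a median of -0.53 and a lower median level of 3.68 RPKM. These genes had 76 separate peaks, as Mrpl46 and Mrps11 share a peak that is counted for both. Mrpl49 shares its peak with Fau, so that peak enters both lists. Of 35 translation factor genes 30 fell (85.7%), among them Eef1a1 and Eef2, the elongation factors, at -0.53 and -0.57, while Tpt1, which carries a TOP motif as well, had a value of -0.25 (limma adjusted p = 0.207). Of 46 genes of ribosome biogenesis and RNA polymerase I 37 fell (80.4%), with Npm1 and Ncl, abundant nucleolar proteins, at -0.55 and -0.49. In none of these lists did a gene rise, and relative to the median peak 0 of their peaks were called either way. Their peaks too were called on the uninduced IPs only.

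The cells' marker promoters give the setting. All 12 naive pluripotency markers had a promoter peak, against 1 of 6 trophoblast markers (Tfap2c), 1 of 6 endoderm and mesoderm markers (Gata6) and 2 of 4 neural markers (Pax6 and Sox1). As peaks were called on the uninduced IPs only, these counts describe the cells before IAA. Of the naive markers 11 fell, with a median change of -1.01, and relative to the median peak 5 were called lower and 1, Pou5f1, higher. The 5 were Sox2, Klf4, Tfcp2l1, Tbx3 and Nr0b1. Klf4, for example, had 6.08 ± 0.24 RPKM before and 2.60 ± 0.40 RPKM after IAA (SD, n = 3), from an uninduced level near the median ribosomal protein promoter. The Pou5f1 value has a limit, as reads from the Oct4 transgenes of these cells may map to its peak. Its signal can therefore not be assigned to the Pou5f1 promoter alone, and this was not tested.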

How the data were processed

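H3K27ac ChIP-seq was measured in 6 libraries of O4AID ESCs, 3 uninduced and 3 given IAA, grouped by the sample labels. The authors mapped to GRCm38 (mm10) using Bowtie 2 (version 2.3.4.3 in the submitters' processing notes) and dropped duplicates with SAMtools. Their peaks come from MACS2 run on all uninduced IPs together, and DiffBind gave the RPKM values that the authors deposited per library and condition. Versions of these callers are not given in the sources used here. The deposited condition columns equal the mean of the 3 libraries. The authors' mark for OCT4 sites, deposited as a text label, was recoded as marked or not marked and otherwise left unchanged. The antibody has different catalogue numbers in the labels and the paper. All RPKM values (100%) are whole multiples of 1 read within 0.01 reads, with peak length as end minus start, which gave the library sizes. No 2 libraries were identical, and the number of unused per-sample columns was 0.

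Peaks with at least 0.5 RPKM in either condition mean were tested in limma 3.58.1 (R 4.3.3) on log2(RPKM + 0.1), by lmFit and a robust eBayes with trend. Adjustment was by Benjamini-Hochberg over all 26457 peaks, at a threshold of 0.05. Fold changes on this scale understate those of low peaks. Single values were compared by exact permutation (two-sided, 20 labellings). Starts came from GENCODE vM21 and coordinates are printed as the files give them. Repeated sequence is the share of 32-base words, taken every 16 bases, that recur in the genome. Replicate numbers did not pair the samples: deviations of same-numbered libraries correlated at -0.01, -0.09 and -0.06.

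The genes, lists and tests were chosen with earlier results of these data known. Named genes are a fixed list (stalk genes, Rpsa, Rps6, Rps19, Rpl3, Rpl5, Rpl11, Rpl26, Rpl7a, Rpl36 and Rpl36a, and pairs of relatives), the 3 largest and 3 smallest changes and the 2 highest and 2 lowest levels of main peaks in each subunit, peaks near OCT4 sites, and genes without a call or peak. A few genes that these rules name are not reported here or drawn in the plots by gene, although counts and medians include them. The minor peaks, neighbours and motif examples were named after their values were seen. Alternatives covered the pseudocount, the threshold, the scaling, the distance rule, the transcripts used, the limma settings, the p threshold, the replicate block and each library left out.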

Additional observations from a re-analysis of the deposited data

How the results depend on the processing

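On the deposited scale, 84 to 87 of 89 promoter peaks were called lower under other pseudocounts and other background thresholds or none, 84 of 85 with basic transcripts only, 86 after centring on peaks below the threshold, 77 with plain eBayes, and 82 of the 83 peaks that contain a start. The calls depended on the scaling: after centring each library on its median tested peak, after quantile normalization, and after centring on the other coding promoters (chosen after seeing the data), 0 promoter peaks and 0 main peaks were called, and the median change was 0.0082 and 0.023 in the first and second of these. Of all tested peaks, 1.97%, 1.69% and 2.25% were called lower under these scalings, in the order given, and 0.544%, 0.45% and 0.518% higher. At an adjusted p under 0.01, 49 promoter peaks and 46 main peaks were called. Leaving out 1 library at a time gave 50 to 87 promoter peaks and 45 to 81 main peaks, median changes of -0.65 to -0.43, and shifts against other coding promoters of -0.04 to 0.02. The lowest counts came without uninduced replicate 1. Of 36 named main peaks, 18 lost their call without it, 15 without uninduced replicate 2, 7 without uninduced replicate 3, 8 without IAA replicate 2 and 3 without IAA replicate 3. Among the 48 peaks with under 10% repeated words (chosen after seeing the data), 46 were called, fewer because fewer were counted. With the replicate number as a block, 87 promoter peaks and 81 main peaks were called, although the pairing check found no shared deviation. Apart from the scalings, no share of all tested peaks is given for these alternatives, so their counts do not place the family against the whole table. No value changed its direction past the threshold.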
